A study of Elopichthys bambusa with 12 samples.

Results

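A set of 44 abundant transcripts that kept nearly the same level in fasted and fed livers was picked out of 42353 assembled transcripts of yellowcheek carp (Elopichthys bambusa), a predatory freshwater fish of the carp family. Liver RNA was sequenced from fish fasted for 8 days, fish fed for 8 days, fish fasted for 28 days and fish fed for 28 days, with 3 libraries in each of the 4 groups. All fish were of the same species and tissue, and the fed groups received a commercial feed throughout. The labels give neither strain, age nor genotype, and do not say whether a library came from a single fish or a pool, and a p-value here therefore reflects only how these libraries vary, which may be technical. The identifiers are those of a de novo assembly. No gene name stands beside them in the tables, so no role can be given for any transcript, and the labelled tissue could not be checked against marker genes.

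Sequencing measures each transcript only as a share of all RNA read in a library. Transcripts that keep a constant level are therefore sought as references, against which the change of others can be read. In liver this is a demanding requirement, because a fast turns the organ from storing glycogen and fat and making secreted proteins towards releasing stored fuel. Constant shares and constant amounts per cell are different properties, and in whole liver a smaller number of cells of a type and less RNA per cell cannot be told apart.

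The members were chosen by their values. Counts were divided by the total of their library and multiplied by 1000000 (CPM), and averaged over the 3 libraries of a group. A transcript was taken where all 4 group means lay between 100 and 1000 CPM and the highest was at most 1.3 times the lowest. The limits of abundance were met by 399 transcripts, of which 44 met the ratio and 355 did not. The ratio of the highest to the lowest group mean had a median of 1.21 in the 44 (lowest 1.04) and of 1.79 in the 355 (highest 6.03), which follows from the choice. Just inside the limit lay ratios of 1.292, 1.293 and 1.297, and just outside 1.301, 1.303 and 1.305, and 41 transcripts lay between 1.3 and 1.4. The border is therefore not a gap. The limits of abundance cut less closely: among transcripts within the ratio, the lowest group mean just inside was 105 CPM and just outside 96.5 CPM, and the highest was 863 CPM inside and 1005 CPM outside.

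Together the 44 transcripts held 1.6% ± 0.068 of all counts in fish fasted for 8 days and 1.59% ± 0.102 in fish fed for 8 days, and 1.54% ± 0.095 in fish fasted for 28 days and 1.53% ± 0.05 in fish fed for 28 days (mean ± SD, n = 3 each). Their mean level ran from 112 to 769 CPM, with a median of 310 CPM. Per length, in the deposited FPKM values (counts scaled by transcript length and library total), they ran from 45.0 to 1007 with a median of 180.2, against a median of 175 for the other 355. Their lengths, obtained from the ratio of counts to FPKM, ran from 617 to 4214 nucleotides, with a median of 1660.5 nucleotides against 1747 for the other 355. All 44 passed the filter on low counts, and none had under 1827 counts in any library.

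Libraries held 16785827 to 19901335 counts. Scaling factors by the trimmed mean of M values (TMM), which correct library size so that most transcripts centre on no change, ran from 0.835 to 1.22. The 3 fasted libraries with the highest factors were replicate 2 at 8 days (1.2) and replicates 2 and 3 at 28 days (1.22 and 1.09), and the other 3 fasted libraries had 0.937 to 0.996. The same 3 libraries held the most transcripts at 1 CPM or more, 21942 to 23605 against 20207 to 20900 in the other 3 fasted libraries and 18789 to 20682 in the fed ones. The number of members, and the members' median fold changes at 8 days and between the fed groups, are also given without them. Fish fasted for 28 days are then left with replicate 1 alone, and no calls of members are given in this setting. Counts of all transcripts that involve that group in this setting are listed only with the processing settings. They rest on replicate 1 alone, and nothing is read from them. The other counts include all 3 libraries.

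The steadiest member over the 12 libraries was TRINITY_DN16882_c2_g3_i2_3 (1034 nucleotides), with a coefficient of variation (CV, the SD divided by the mean) of 5.02%. It had 189, 199 and 204 CPM in fish fasted for 8 days, against 179, 191 and 193 CPM in fish fed for 8 days. At 28 days it had 186, 180.3 and 184 CPM in fasted fish, against 185, 178 and 169.8 CPM in fed fish. The highest library was 1.2 times the lowest, and the fasted and fed libraries overlapped on both days.

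Second was TRINITY_DN11532_c0_g1_i2_1 (2343 nucleotides), with a CV of 6.25%. It had 155, 145 and 147 CPM in fish fasted for 8 days, against 155, 156 and 176 CPM in fish fed for 8 days. At 28 days it had 152, 150.1 and 139 CPM in fasted fish, against 164, 159 and 149.8 CPM in fed fish. Fasted and fed libraries overlapped on both days. Its highest library, at 176 CPM, was replicate 3 of the fish fed for 8 days, and its lowest, at 139 CPM, replicate 3 of those fasted for 28 days.

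At the other end stood TRINITY_DN14106_c0_g1_i2_4 (1654 nucleotides), with a CV of 20.7%. It had 284, 197 and 157 CPM in fish fasted for 8 days, against 186, 177 and 186 CPM in fish fed for 8 days. At 28 days it had 268, 184 and 187 CPM in fasted fish, against 178, 161 and 165.5 CPM in fed fish. The first fasted replicate of each day was far above the other 2, while the fed libraries lay close together. Steady group means thus covered a spread between fasted libraries of 30.6% (CV at 8 days) and 22.3% (28 days), against 2.79% and 5.48% in fed fish.

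The second most variable member, TRINITY_DN8749_c0_g1_i1_2 (796 nucleotides, CV 19.5%), was also among the most abundant per length, with a mean of 827 FPKM. It had 850.3, 509 and 846 CPM in fish fasted for 8 days, against 561, 572 and 648 CPM in fish fed for 8 days. At 28 days it had 847, 513 and 598 CPM in fasted fish, against 656, 603 and 754 CPM in fed fish. The low fasted libraries were the 3 with the highest TMM factors.

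TRINITY_DN9860_c0_g1_i1_1 (617 nucleotides), the shortest member, was the most abundant per length, with a mean of 1007 FPKM. It had 688, 526 and 681 CPM in fish fasted for 8 days, against 714, 694 and 763 CPM in fish fed for 8 days. At 28 days it had 703, 437 and 550.2 CPM in fasted fish, against 589, 546 and 583 CPM in fed fish. At 8 days all fasted libraries lay below all fed ones, and at 28 days the groups overlapped. Within the fasted fish the same 3 libraries were again the lowest. Of the 44 members, 6 had no overlap between fasted and fed libraries at 8 days and 6 at 28 days relative to library size, where 42.3% and 35.4% of all 32212 transcripts tested had none. The difference between fasted and fed fish did not pass the test for any of these 5 transcripts on either day (edgeR quasi-likelihood test on TMM-scaled counts, Benjamini-Hochberg adjusted p = 0.106 to 0.98). Their levels were used in choosing them, so this is a description.

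**Figure D1:**
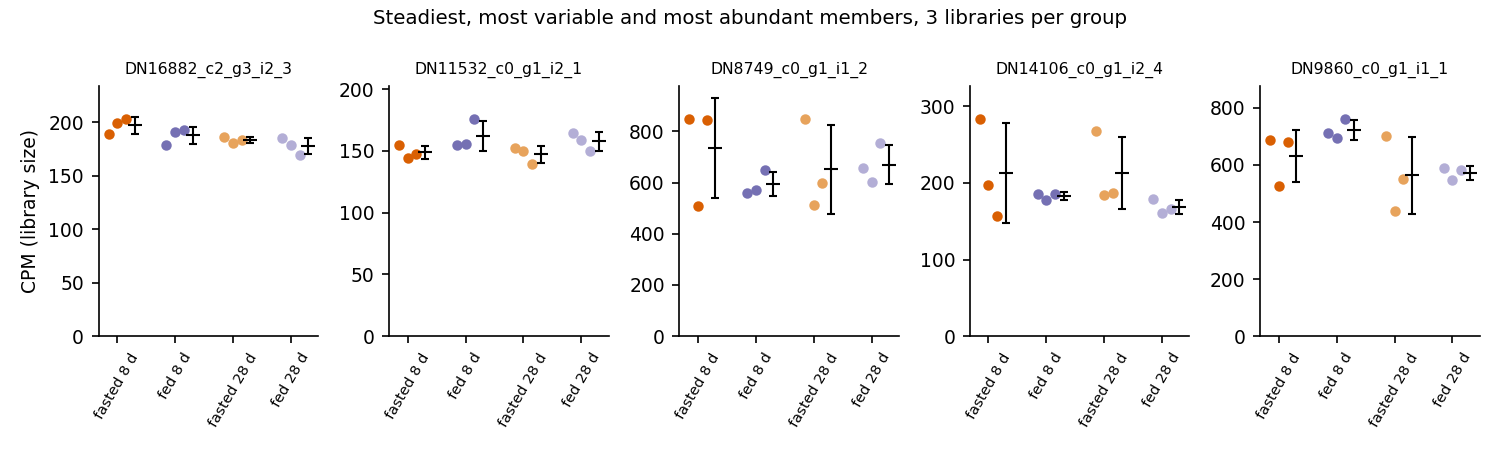
Level of the 5 named members in CPM relative to library size (vertical axis, from 0) in the 3 libraries of each group (points, replicates 1 to 3 from left to right), with the mean and SD beside them. The left pair of transcripts stays flat over all 12 libraries, while the other 3 spread more widely in the fasted than in the fed groups.

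Single libraries differ at least as much as group means, because a mean lies within the range of its libraries. The highest of the 12 libraries was at most 1.3 times the lowest in 6 of the 44 and at most 1.5 times in 23, and the largest such ratio was 1.81. The CV over the 12 libraries had a median of 12.4% (5.02% to 20.7%), against 29.2% for the other 355, a difference that the choice on group means makes in part.

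The rule did not use the spread within a group directly, but a transcript that varies between the same libraries is less likely to have 4 group means within 1.3-fold, so a lower spread of the members is in part set by the choice. Within groups, members had a median CV of 11% (fasted) and 7.48% (fed) at 8 days, and of 13.5% (fasted) and 8.54% (fed) at 28 days. The CV was larger in fasted than in fed fish for 27 of 44 members at 8 days and for 34 of 44 at 28 days. For the other 355 transcripts of the same abundance the medians at 8 days were 17.1% (fasted) and 7.88% (fed), those at 28 days 15.6% (fasted) and 9.61% (fed), and the CV was larger in fasted fish for 281 of 355 at 8 days and 238 of 355 at 28 days. Relative to library size the gap between members and others was widest in fish fasted for 8 days, and on TMM-scaled CPM the medians of that group were 19.4% for members and 20.6% for the others. Over all 32212 transcripts tested, most of them less abundant, the medians at 8 days were 40.6% (fasted) and 32.2% (fed), and at 28 days 36.9% (fasted) and 35.8% (fed). Transcripts are not replicates, and no test was made of these medians.

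Counting error was a small part of that spread. A member had a median of 5533 counts in a library, for which counting alone gives a CV of about 1.3%, and the variance between libraries of a group exceeded that of counting by a median factor of 80.3 (fasted) and 29.4 (fed) at 8 days, and of 66.7 (fasted) and 30.7 (fed) at 28 days. Between single pairs of libraries of a group, the chi-square per member had a median of 5.84 to 87.4, where counting alone gives about 1, and all 12 libraries were counted as separate samples. These factors cover counting error only, and reads without molecular identifiers are not independent molecules.

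Pairs of libraries show where the spread in fasted fish lies. At 8 days, members differed by a median of 0.15 on the log2 scale between fasted replicates 1 and 3, and by 0.19 between replicate 2 and each of these. At 28 days they differed by 0.12 between fasted replicates 2 and 3, and by 0.30 and 0.26 between replicate 1 and these. Fed replicates differed by 0.07 to 0.17 at 8 days and by 0.11 to 0.13 at 28 days. The smallest fasted values are thus those of pairs on the same side of the division in TMM factors, and they lie within the range of the fed pairs of their day. What sets the 3 libraries apart was not tested.

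The members were offset together in a single fed library. In replicate 3 of the fish fed for 8 days, 42 of 44 members lay above their group mean, whereas 42 of 44 lay below it in replicate 1 and 33 in replicate 2. The offset was not particular to the members, since 82.5% of the other 355 transcripts also lay above their group mean in that library. It was not seen over all transcripts tested, most of them less abundant. Their median log2 difference from replicate 3 was 0 for replicate 1 and for replicate 2, relative to library size. After scaling by the members themselves, which removes an offset they share, their median CV in fish fed for 8 days was 4.61%, and 43 of 44 were under 10%.

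**Figure D2:**
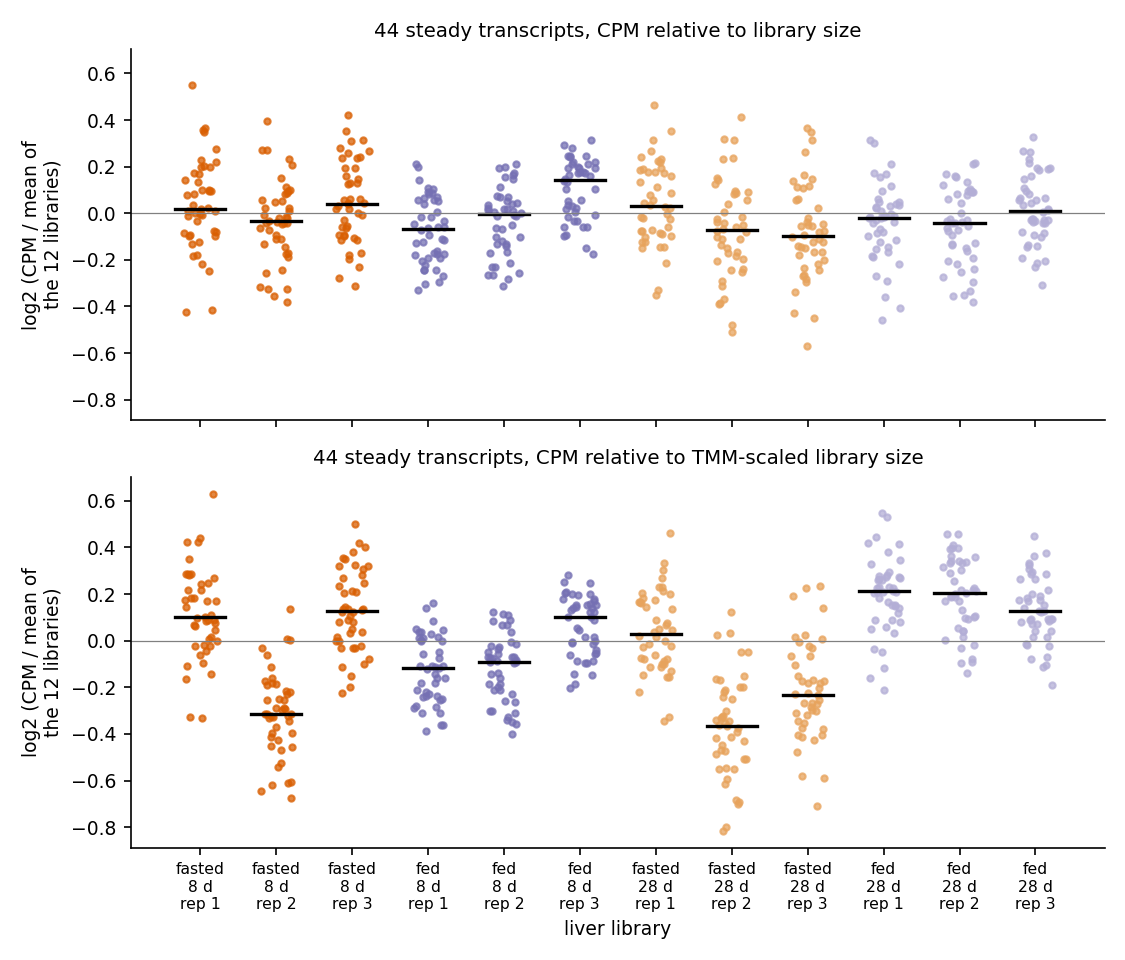
Log2 ratio of each member's CPM to its own mean over the 12 libraries (points, 44 per library) with the median per library (bars), relative to library size (top) and to TMM-scaled library size (bottom). The medians stay between -0.10 and 0.14 in the top panel, and in the bottom panel they fall to -0.31, -0.37 and -0.23 in replicate 2 of the fish fasted for 8 days and replicates 2 and 3 of those fasted for 28 days.

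Steadiness depended on the scale on which it was read. On TMM-scaled CPM, the median ratio of the highest to the lowest group mean of the 44 members was 1.33, and 17 of the 44 kept a ratio of at most 1.3. Applying the same rule to TMM-scaled CPM gave 66 transcripts, of which 17 were shared, which is 38.6% of the 44 and 25.8% of the 66. With scaling by relative log expression (RLE) it gave 68, with 17 shared. On the deposited FPKM values 36 of the 44 members kept the ratio, and the ratios on the 2 scales differed by at most 5.78%.

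TMM scaling also widened the spread of the members within fasted groups. Their median CV on that scale was 19.4% (fasted) and 8.54% (fed) at 8 days, and 16.9% (fasted) and 8.26% (fed) at 28 days. The 355 other transcripts of this abundance moved likewise, to 20.6% and 18.2% in fish fasted for 8 and 28 days. Over all 32212 transcripts tested the change was in the other direction, to 37.8% and 35.7%. Abundant transcripts were thus more alike between fasted libraries relative to library size, and the bulk of less abundant ones relative to TMM-scaled size.

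**Figure D3:**
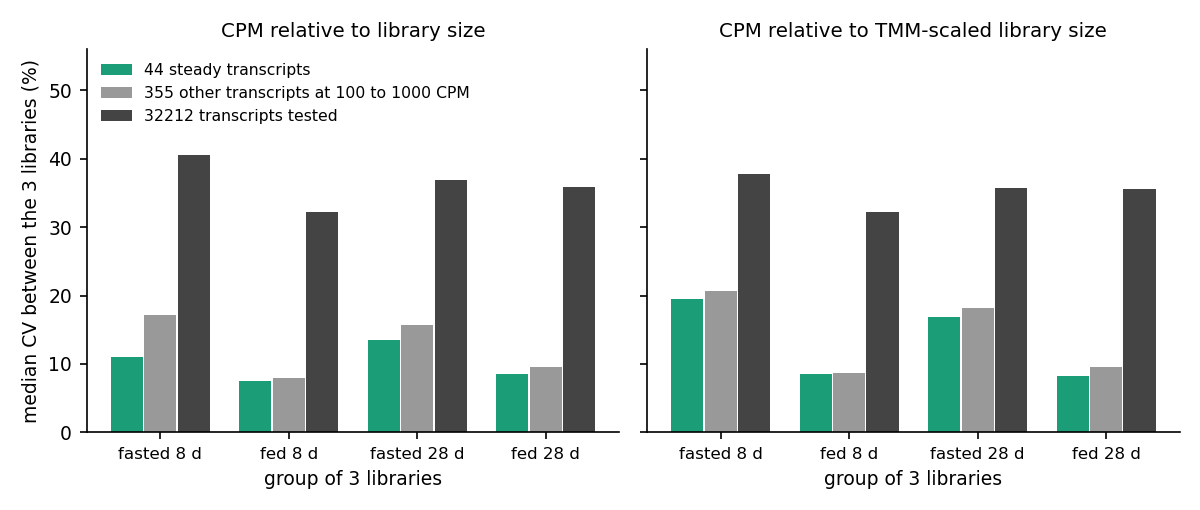
Median coefficient of variation between the 3 libraries of each group, in percent, for the 44 members (green), the 355 other transcripts between 100 and 1000 CPM (light grey) and all 32212 transcripts tested (dark grey), relative to library size (left) and to TMM-scaled library size (right). Members stand at 11% and 13.5% in the fasted groups on the left and at 19.4% and 16.9% on the right, while the fed groups stay between 7.48% and 8.54% on both sides.

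A check on libraries that the rule had not used was made by choosing on 2 of the 3 replicate numbers in every group and reading the 4 libraries of the remaining number. Leaving out numbers 1, 2 and 3 in turn, the rule chose 40, 47 and 52 transcripts, of which 29, 35 and 37 were among the 44. In the 4 libraries left out, the highest was a median of 1.39, 1.36 and 1.4 times the lowest. Between 4 single libraries that had been used, the corresponding medians were 1.21 to 1.3. For transcripts of the same abundance that were not chosen, the libraries left out gave medians of 1.71, 2.0 and 2.06.

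Most of the chosen transcripts stayed within moderate limits in the libraries left out. A ratio of at most 1.5 was kept by 26 of 40, 34 of 47 and 34 of 52 chosen transcripts, against 110 of 346, 63 of 355 and 48 of 359 of those not chosen. A ratio of at most 1.3 was kept by 17, 19 and 15 of the chosen transcripts, and a ratio of at most 2 by 39, 46 and 50 of them. The largest ratio was 5.23, with number 3 left out. The log2 ratio of the fasted to the fed library left out had a median between -0.06 and 0.16 at 8 days and between -0.18 and 0.15 at 28 days, with an SD over transcripts of 0.30 to 0.44. Chosen and read on TMM-scaled CPM, 44, 63 and 85 transcripts were taken, and the libraries left out gave median ratios of 1.36, 1.39 and 1.47.

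**Figure D4:**
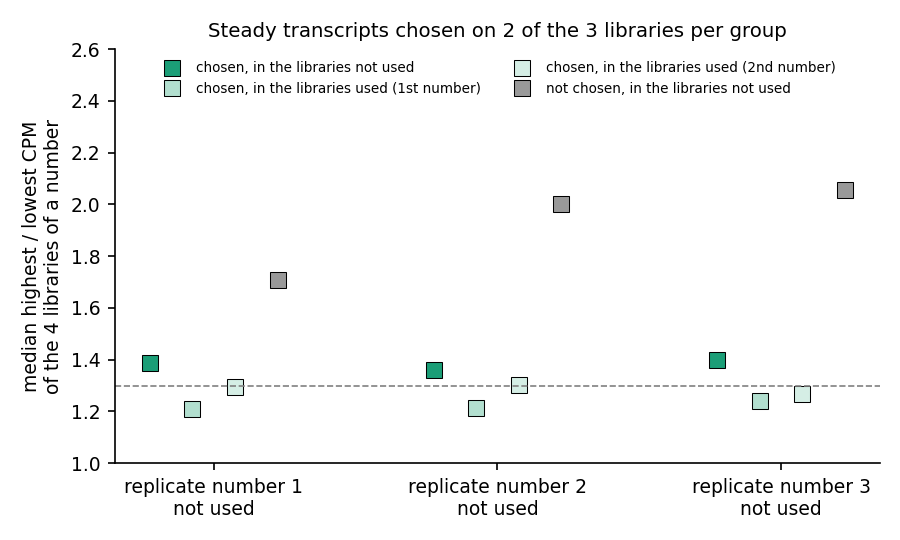
Median ratio of the highest to the lowest CPM among the 4 libraries of a replicate number (vertical axis, from 1), for transcripts chosen as steady on the other 2 numbers, in the libraries not used (dark green) and in those used (pale), and for transcripts of the same abundance not chosen (grey). The dashed line is the limit of 1.3 on group means. The values in libraries not used, 1.36 to 1.4, lie above those in libraries used and below those of transcripts not chosen.

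In the test across all transcripts, with TMM scaling, 0 of 44 members passed between fasted and fed fish at 8 days (edgeR, adjusted p under 0.05). Of all 32212 transcripts tested, 25.3% passed. At 8 days 0 of 44 members and 11824 transcripts had an unadjusted p under 0.05 (edgeR). At 28 days 17 members, all lower in fasted fish, and 8015 transcripts did. Between the fed groups 10 members, all higher at 28 days, and 12513 transcripts did. DESeq2 passed 0 of 44 members at 8 days and 10186 of 32158 transcripts. Limma on log2(FPKM + 1) and log2(FPKM + 0.1) passed 0 of 44 members, and 8237 and 7720 transcripts. Relative to library size 1 member passed, which was lower in fasted fish, and 7746 transcripts did. Without the 3 fasted libraries named above, the members' median log2 fold change at 8 days was 0.19, and that of all transcripts 0.03. At 28 days 3 members passed, all lower in fasted fish, where 5.79% of transcripts passed as lower and 9.92% in either direction. Between fish fed for 28 and for 8 days 4 members passed, all higher at 28 days, where 14.3% of transcripts passed as higher and 27.1% in either direction. Between fish fasted for 28 and for 8 days 0 of 44 passed, as did 0 of all transcripts, with 894 transcripts and 0 members at an unadjusted p under 0.05. DESeq2 passed 32 transcripts there and limma 0. All 4 comparisons were used by the rule and share libraries, so nothing is read from these counts about the members. The count of 3 at 28 days rested on single libraries: it was 7 without replicate 1 of the fish fasted for 28 days, and 0 without replicate 2 or 3 of that group, without replicate 2 or 3 of the fish fed for 28 days, or without replicate 1 or 2 of those fed for 8 days. It was 1 without replicate 1 of the fish fed for 28 days. With DESeq2 it was 10, where 5456 of 30909 transcripts passed. In the setting with 7, 3281 of 34564 transcripts passed, and with a library left out and a count of 0 or 1, 1704 to 2568 passed. The count of members was also 0 relative to library size, with limma on FPKM and with no filter on low counts. There 3624, 2919 to 3624 and 2733 transcripts passed. With the members' own factors 1 member passed, which was higher in fasted fish, and 3513 transcripts did. The count of 4 between the fed groups was 1 without replicate 1 or 2 of the fish fed for 8 days. It was 2 without replicate 3 of that group or any 1 replicate of the fish fed for 28 days. In these settings 6620 to 7651 transcripts passed. With DESeq2 it was 7, where 10975 of 32158 transcripts passed, and with upper-quartile scaling 8, where 8741 of 32212 passed. It was 0 with limma on FPKM, 1 with the members' own factors and, relative to library size, 1 that was lower at 28 days. There 9507 to 9826, 8511 and 8910 transcripts passed. Without the 3 fasted libraries, the members' median log2 fold change between the fed groups was 0.23, and that of all transcripts -0.01. On TMM-scaled CPM, 20 members did not overlap between fasted and fed libraries at 28 days and 3 at 8 days, where 31.6% and 43.9% of all transcripts did not, and 20 did not between the fed groups, where 47.1% did not.

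A pair of transcripts passed both between fasted and fed fish at 28 days and between the fed groups, and they are named after their values were seen. Both comparisons share the 3 libraries of fish fed for 28 days, and the rule had used these group means. Their p-values are therefore a description. With TMM scaling the median log2 fold change of all 44 members was -0.38 at 28 days and 0.26 between the fed groups. TRINITY_DN16421_c8_g3_i1_3 (2174 nucleotides) had 631, 657 and 720.1 TMM-scaled CPM in fish fasted for 28 days, against 1002, 971 and 922 in fish fed for 28 days. At 28 days it was lower in fasted than in fed fish by 0.53 on the log2 scale, with an SE of 0.14 (adjusted p = 0.037 by edgeR). Relative to library size it had 628, 803 and 784 CPM in fasted fish, against 844, 810.2 and 845 CPM in fed fish, and the log2 fold change was -0.17 ± 0.13 (edgeR adjusted p = 0.405). TRINITY_DN12499_c0_g1_i2_2 (2497 nucleotides) had a log2 fold change of -0.55 ± 0.14 with TMM scaling (edgeR adjusted p = 0.0322) and of -0.20 ± 0.14 relative to library size (edgeR adjusted p = 0.387). Between fish fed for 28 and for 8 days, the log2 fold change with TMM scaling was 0.61 ± 0.14 for the first (edgeR adjusted p = 0.00768) and 0.45 ± 0.14 for the second (edgeR adjusted p = 0.0359). For both, the fasted and fed libraries of 28 days were apart on the TMM scale, and on the library-size scale they were apart for the first and overlapped for the second. Relative to library size, 0 of 44 members passed as higher between the fed groups, where the highest log2 fold change of a member was 0.36.

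The intervals of the members' fold changes are given as a description, since the choice on the same means fixes that they centre on small estimates. With TMM scaling, the 95% interval of a member's log2 fold change reached a median of 0.41 to either side of the estimate. It lay within a change of 2-fold in either direction for 43 of 44 members at 8 days and 39 of 44 at 28 days, and within 1.5-fold for 29 and 9. Relative to library size the reach was 0.31, and the interval lay within 2-fold for all 44 members on both days and within 1.5-fold for 34 at 8 days and 38 at 28 days. Because the members were selected on their observed means in these libraries, their true differences may be larger than these intervals show.

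The 44 members were then used as a reference for scaling. The factor of a library was the median, over members, of the count relative to the geometric mean of the 12 libraries, divided by library size. The factors ran from 0.938 in replicate 3 of the fish fasted for 28 days to 1.11 in replicate 3 of those fed for 8 days. Their geometric mean was 1.01 (fasted) and 1.02 (fed) at 8 days, and 0.974 (fasted) and 0.994 (fed) at 28 days. TMM factors averaged 1.02 (fasted) and 1.03 (fed) at 8 days, but 1.1 (fasted) and 0.864 (fed) at 28 days. As log2 ratios of fasted to fed fish, the members' factors gave -0.01 at 8 days and -0.03 at 28 days, and TMM gave -0.02 and 0.35. The group means of the scalings therefore lay close together at 8 days and apart at 28 days. In single fasted libraries they could differ on both days: the TMM factor divided by the members' factor was 0.924, 1.22 and 0.906 in fish fasted for 8 days and 0.97, 1.27 and 1.16 in fish fasted for 28 days.

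The closeness of the members' factors to 1 is set by the rule, which required steady shares of the library. Factors from members chosen on the other replicate numbers, which a library did not help to choose, were 0.976 (fasted) and 0.987 (fed) at 28 days and ran from 0.917 to 1.12. These members were chosen by the same rule on shares of the library in the same 4 groups. Their group means therefore also tend towards 1 by the choice. The 66 transcripts that were steady on TMM-scaled CPM instead gave 1.07 (fasted) and 0.821 (fed) at 28 days, near the TMM group means. This closeness too is set by the choice, which required steady group means on the TMM scale, and it favours neither scaling. Between single fasted libraries they did not follow TMM: replicate 1 at 8 days had 1.13 against a TMM factor of 0.94, and replicate 2 at 28 days had 1.0 against 1.22.

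Refitting the test with the members' factors turned the balance of higher and lower transcripts at 28 days from that with TMM, as did library size alone. At 8 days 3839 transcripts were higher and 3717 lower in fasted fish with the members' factors, against 4278 and 3885 with TMM. At 28 days 2448 were higher and 1065 lower with the members' factors, against 1333 and 1864 with TMM, so that the share of higher ones was 69.7% in place of 41.7%. Library size alone gave 2505 higher and 1119 lower, a share of 69.1%. The median log2 fold change of all transcripts at 28 days was 0.49 with the members' factors, 0.45 with library size alone and 0.10 with TMM. That of the members was -0.02, -0.05 and -0.38. Factors from members chosen on the other replicate numbers gave 2315 higher and 1065 lower transcripts at 28 days. At 8 days they gave 3547 higher and 3889 lower ones, a share of 47.7% higher against 52.4% with TMM. As those members were chosen by the same rule on library-size CPM, these counts are no independent reading of the balance. Between fish fed for 28 and for 8 days the share of higher ones was 40.7% with the members' factors and 52.6% with TMM.

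With the members' factors, 0 of 44 members passed at 8 days, where 23.5% of all transcripts passed. At 28 days 1 passed, where 7.6% of all transcripts passed as higher and 10.9% in either direction. This was TRINITY_DN11231_c0_g1_i2_1 (845 nucleotides), named after its values were seen. It had 265, 247 and 242 CPM in fish fasted for 28 days, against 199.7, 182 and 202 CPM in fish fed for 28 days, with no overlap. Its log2 fold change was 0.40 ± 0.10 with the members' factors (± SE, edgeR adjusted p = 0.0241) and 0.03 ± 0.16 with TMM (edgeR adjusted p = 0.928). The call thus depended on the scaling. The rule had used this transcript's group means, and it is itself part of the reference, so the test is a description only. On TMM-scaled CPM this member had the most even group means of the 44, with a ratio of 1.05.

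Transcripts of different abundance centred on different ratios, which bears on what a reference among abundant ones can represent. Relative to library size, the median log2 ratio of fasted to fed group means at 28 days was 0.45 for the 10260 transcripts under 1 CPM and 0.49 for the 16417 from 1 to 10 CPM. It was 0.20 for 4661 transcripts from 10 to 100 CPM, 0.07 for 739 from 100 to 1000 CPM, 0.04 for 135 over 1000 CPM, and -0.05 for the members. The TMM factors of fasted and fed fish differed by 0.35, between the values of the low and of the high classes. At 8 days there was no such order: the medians were 0.29, 0.10, -0.03, 0.10 and 0.28 from the lowest to the highest class, 0.03 for the members, and the TMM factors differed by -0.02. No test was made of these medians.

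**Figure D5:**
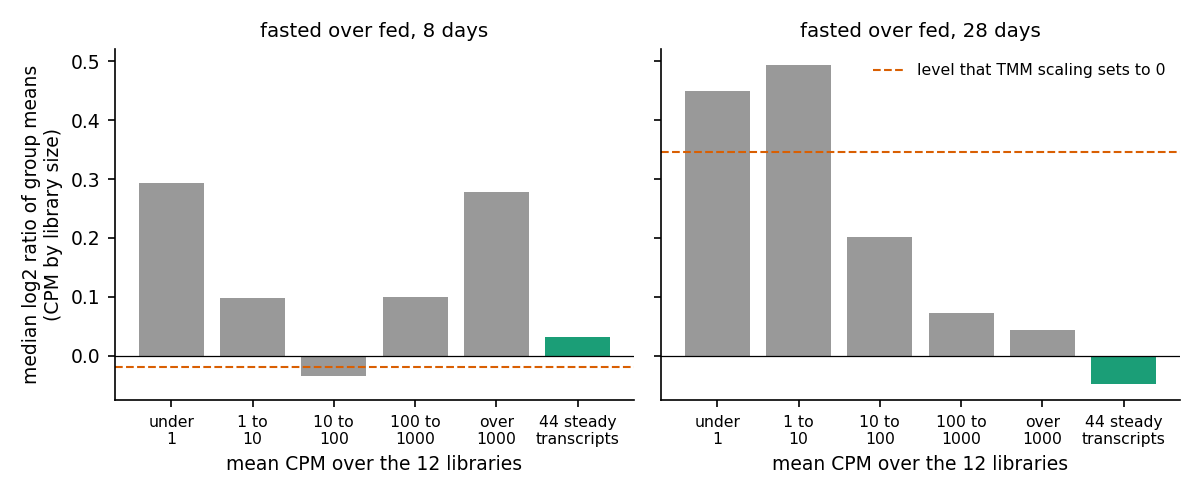
Median log2 ratio of fasted to fed group means (CPM relative to library size) for all tested transcripts by mean abundance (grey) and for the 44 members (green), at 8 days (left) and 28 days (right), with the difference in TMM factors dashed. At 28 days the median falls with abundance from 1 CPM upwards, to 0.04 over 1000 CPM and -0.05 for the members, and the dashed line stands at 0.35.

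Every kind of identifier occurred among the members. The identifiers carry an assembly gene number, an isoform number and a last number from 1 to 4, and no 2 of the 42353 share both gene number and last number. The last number was 1, 2, 3 and 4 for 12, 13, 14 and 5 members, and for 107, 76, 106 and 66 of the other 355. For 20 members the table held a further transcript with the same gene number and another last number. The member held a median of 98.7% of the sum of such transcripts (at least 78.8%), and the sum kept the ratio of 1.3 in 19 of the 20. A sum that is nearly all the member repeats the member's ratio, which the rule had limited, so this is no separate check. Summed over the wider assembly component with any last number, which 34 members shared with another transcript, the ratio was kept in 31. The member held over 90% of that sum in 30, so most of these ratios too follow from the choice. The lowest share of a member was 23.5%, with a ratio of the sum of 1.77. The highest ratio of a sum, 2.35, was that of another member, which held 66.3% of it. Within the same last number, 15 members shared the component with another transcript. The ratio of that sum was kept in 13, and the member held over 90% of it in 12. Whether a shared gene number means a shared gene is not known. The 983 pairs with the same gene number over 5 CPM had a median correlation of 0.07 over the 12 libraries, a description of libraries that share depth and composition. Pairs with different gene numbers were not set beside them, so this value cannot settle it. With estimated counts, reads of near-identical transcripts may have been split, so the level of a single member is uncertain to that extent.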

How the data were processed

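Liver RNA from 12 samples in 4 groups of 3 was sequenced from stranded mRNA libraries, per the labels' protocols. Trimmomatic and Bowtie2 were used, per the submitters' processing notes. The assembler, the abundance estimator and each library's instrument were not given in the sources used here. For every assembled transcript the authors deposited estimated counts, which are not whole, and FPKM values. Columns were matched to samples by their group code, which the series text explains, and by replicate number.

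CPM for the rule used the deposited counts and column totals. For tests the counts were rounded, filtered with filterByExpr (32212 kept, 10141 left out) and fitted as 4 group means in edgeR 4.0.16 (R 4.3.3) with TMM scaling and robust quasi-likelihood F tests, with Benjamini-Hochberg adjusted p under 0.05 as the threshold. Standard errors and 95% intervals came from the information matrix and the posterior quasi-likelihood variance. The test was also run on simulated counts in which fasted and fed fish at 28 days had equal means. That run does not bear on the choice of scaling at 28 days. Lengths were counts over FPKM, made whole within 0.02 nucleotides in 100% of cases. Class medians of group means used a pseudocount of 0.1 CPM. Alternatives used DESeq2 1.42.0, limma 3.58.1 on log2(FPKM + 1) and log2(FPKM + 0.1), other scalings, filters and limits, a replicate block and leaving out libraries. Libraries of the same replicate number were not treated as pairs. Their deviations from the group mean correlated at -0.16 to 0.14 over 18 pairs, 2 of them over 0.1. Over 36 pairs of different numbers the range was -0.34 to 0.23. Deviations from a mean of 3 libraries are tied to each other, so these values cannot settle whether the numbers mark pairs.

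The members, the lists and the tests were chosen with earlier results of these data known. Named are the 2 members with the lowest and the 2 with the highest CV over 12 libraries and the 2 with the highest mean FPKM, and members that passed a test where 2 or fewer did so in a direction. Further ones are said to be named after their values were seen. The lists of reference genes and cell type markers could not be run without gene names.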

Additional observations from a re-analysis of the deposited data

How the results depend on the processing

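The number of members, 44, was 66 on TMM-scaled and 68 on RLE-scaled CPM, 21 and 126 with ratio limits of 1.2 and 1.5, 86 from 50 to 2000 CPM, 167 from 20 to 5000 CPM, and 32 to 54 when a library was left out. Leaving out the 3 fasted libraries with the highest TMM factors, like the factors from members chosen on the other replicate numbers, was added after seeing the data. It left the fish fasted for 28 days with replicate 1 alone, and gave 57 members, of which 34 were among the 44. Below, the counts without these 3 libraries at 28 days and for the difference between the days therefore rest on an unreplicated group. Nothing is read from them. The median pooled CV within groups, 10.5%, was 15.3% on TMM-scaled and 16% on RLE-scaled CPM, and 9.75% to 11.1% when a library was left out. The median ratio in libraries not used averaged 1.38, and 1.4 on TMM-scaled CPM. The highest factor from members was 1.18 times the lowest, and 1.44 times for members chosen on TMM-scaled CPM. The 3197 transcripts that passed at 28 days were 5456 with DESeq2, 1080 without the 3 fasted libraries, and 1704 to 3532 when a library was left out, with 1704, 1738, 1830 and 1905 without replicates 2 and 3 of the fish fasted and replicates 2 and 3 of the fish fed for 28 days. The other counts when a library was left out were 6221 to 8200 at 8 days (8163 in full), 6620 to 8955 between the fed groups (8740), 0 to 1 between the fasted groups (0, and 32 with DESeq2) and 3258 to 4520 for the difference between the days (4630, and 2684 without the 3 fasted libraries). The share of higher calls at 28 days, 41.7%, was 39.4% with RLE scaling, 41.1% with upper-quartile scaling and 44.6% with DESeq2. It was 69.1% with library size, 68.5% with factors from members chosen on the other replicate numbers and 63.5% with limma on log2(FPKM + 1). The libraries were not treated as paired by replicate number. With a replicate block the counts were 7638, 2882, 8162, 0 and 4078, with intervals within 2-fold for 44 members at 8 days and 40 at 28 days. With 3 libraries a group and TMM scaling, the members' intervals reached a median of about 0.41 on the log2 scale to either side. This is neither the change that would pass after adjustment nor the reach for less abundant transcripts. The causes of these shifts were not tested.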

Other observations

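Steady transcripts were found in each class of abundance from 1 CPM upwards, and lower ones were not examined. With the same ratio of 1.3, 452 of 8096 transcripts with all 4 group means from 1 to 10 CPM were steady (5.58%), as were 223 of 2286 from 10 to 100 CPM (9.76%), 44 of 399 from 100 to 1000 CPM (11%) and 19 of 96 from 1000 CPM upwards (19.8%). Counting error is larger at low abundance, and all tested transcripts had a larger median spread between libraries than those at 100 to 1000 CPM. Whether either sets these shares was not tested.

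Among the 44 members the highest group mean was that of fish fasted for 8 days in 13, fed for 8 days in 12, fasted for 28 days in 7 and fed for 28 days in 12. The lowest was that of fish fasted for 28 days in 17, fed for 8 days in 14, fed for 28 days in 10 and fasted for 8 days in 3. In edgeR's fit with TMM scaling, the biological CV of the members had a median of 19.5% (15.1% to 28.1%). It was 20.3% for the other 355 transcripts between 100 and 1000 CPM and 45.5% for all tested. The fit draws these values towards those of transcripts of similar abundance, which can bring members and others closer. The median pooled CV within groups was 15.3% for members and 16.6% for the other 355 on TMM-scaled CPM. Relative to library size it was 10.5% and 14.0%.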
